A study of Mus musculus with 30 samples.

Results

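Microglia isolated from mice with no intact Il34 gene (KO) were compared with microglia isolated from mice that kept 1 intact copy (Het). These isolates make up 7 of the 30 libraries of the series, 4 from Het animals and 3 from KO animals, chosen by their labels of tissue, genotype and experiment. The Het animals, numbered 1, 20, 21 and 23, were 2 males and 2 females, and the KO animals, numbered 24, 3 and 6, were 1 male (KO 3) and 2 females. Each isolate came from 1 hemisphere of a saline-perfused forebrain by antibody capture of cells bearing CD11b, an integrin chain carried by microglia and other myeloid cells. The other hemisphere of the same animal was sequenced whole. Neither the age of these mice, nor their strain, nor the design of the Il34 allele is given in the labels, and no Il34 wild-type isolate belongs to the genotype experiment, so every value here is against animals that had already lost 1 copy. The study's title places the source of IL-34 in excitatory neurons. The p-values measure the spread between these 7 animals only.

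Interleukin-34 (IL-34) is a secreted protein that binds CSF1R, the receptor tyrosine kinase on which microglia depend for survival, and shares that receptor with a second ligand, CSF1. In the brain IL-34 is made mostly by neurons. Microglia at rest carry a set of genes, often called homeostatic, that distinguishes them from other macrophages: the purine receptors P2ry12 and P2ry13, the membrane protein Tmem119, the lectin Siglech and the fructose transporter Slc2a5 are among them, and the transcription factors PU.1 (Spi1), Sall1 and Mef2 maintain this state. Activated microglia lower many of these genes and raise others, such as Itgax, Clec7a and Apoe.

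Scaled over all counts, the targeted gene did not separate the isolates. Il34 had 8.28, 10.6, 7.39 and 5.20 counts per M of the scaled library size (CPM, M standing for 1e+06) in Het 1, 20, 21 and 23, and 6.65, 7.29 and 5.34 CPM in KO 24, 3 and 6. The arms overlapped, and the difference of -0.27 on the log2 scale did not pass the test (adjusted p = 0.49). In the whole forebrain of the same animals Il34 averaged 21.5 ± 2.4 CPM over the 4 Het animals and 7.76 ± 0.99 CPM over the 3 KO animals (SD), a difference of -1.50 in log2 (adjusted p = 1.01e-05). The labels do not give the deleted part of the gene, so counts over its whole span (chr8:110741829-110805924, minus strand, GRCm38, which 2 antisense genes overlap) do not test the allele itself.

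The isolates carried the defining markers of microglia in all 7 libraries, among them P2ry12, Tmem119, Cx3cr1, Gpr34, Siglech, Sall1 and Csf1r. Itgam and Irf8, also myeloid genes, were listed at or near 0, while others such as Cybb and Itgax were counted in all 7. Itgam, which encodes CD11b itself, had 0.182 CPM in Het 20, 0.0478 CPM in KO 24 and 0 in the other 5 isolates. The transcription factor gene Irf8 was listed at 0 in all 7. Neither could be compared, and why they were listed so was not tested. The isolates also carried RNA of other brain cells. To follow microglia genes against one another, 562 isolate-enriched genes were used as a reference: genes at least 16-fold higher in isolates than in forebrain of the control-antibody animals of the same series, none of which enters the comparison. These reference genes took 7.46, 9.52, 12.9 and 9.87% of all counts in Het 1, 20, 21 and 23, but 3.97, 4.22 and 4.77% in KO 24, 3 and 6. The arms did not overlap, with means of 9.93% ± 2.24 (SD, n = 4) and 4.32% ± 0.411 (SD, n = 3). In bulk libraries, fewer microglia in an isolate and less RNA in each microglial cell cannot be told apart.

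The sums of some markers of other cells lay on the other side. The summed level of 9 astrocyte markers was 12469, 7208, 3397 and 8154 CPM in Het 1, 20, 21 and 23 and 17230, 16840 and 13801 CPM in KO 24, 3 and 6. All 3 KO isolates lay above all 4 Het isolates, as they did for the transcripts of the mitochondrial genome, at 41371 to 77601 CPM in Het and 80663 to 127070 CPM in KO. Excitatory neuron markers summed to 660 to 2555 CPM in Het and 2215 to 3835 CPM in KO, and oligodendrocyte-lineage markers to 3141 to 10616 CPM and 8631 to 19088 CPM, both with overlap. Inhibitory neuron markers summed to 79.8, 69.9, 35.5 and 76.6 CPM in Het 1, 20, 21 and 23 and 174, 109 and 89.2 CPM in KO 24, 3 and 6, without overlap. Choroid plexus markers summed to 1749 to 4032 CPM in Het and 1220 to 3204 CPM in KO, also with overlap and with the lower mean in KO. Het 21 had the least of the astrocyte, neuron and oligodendrocyte markers and the largest share of reference genes. None of the 97 markers of other cells was at 0 in all 7 libraries. Of the 88 that passed the filter on low counts, 0 rose and 1 fell (the B-cell receptor chain Cd79b) by edgeR at an adjusted p under 0.05, and 15 (17%) were higher in every KO than in every Het isolate, against 18% of all genes tested. These 15 were 8 of 9 astrocyte, 4 of 10 oligodendrocyte-lineage, 2 of 9 excitatory neuron and 1 of 8 inhibitory neuron markers, and 0 in the other 7 lists. The part of these other cells in the results below was not tested.

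**Figure D1:**
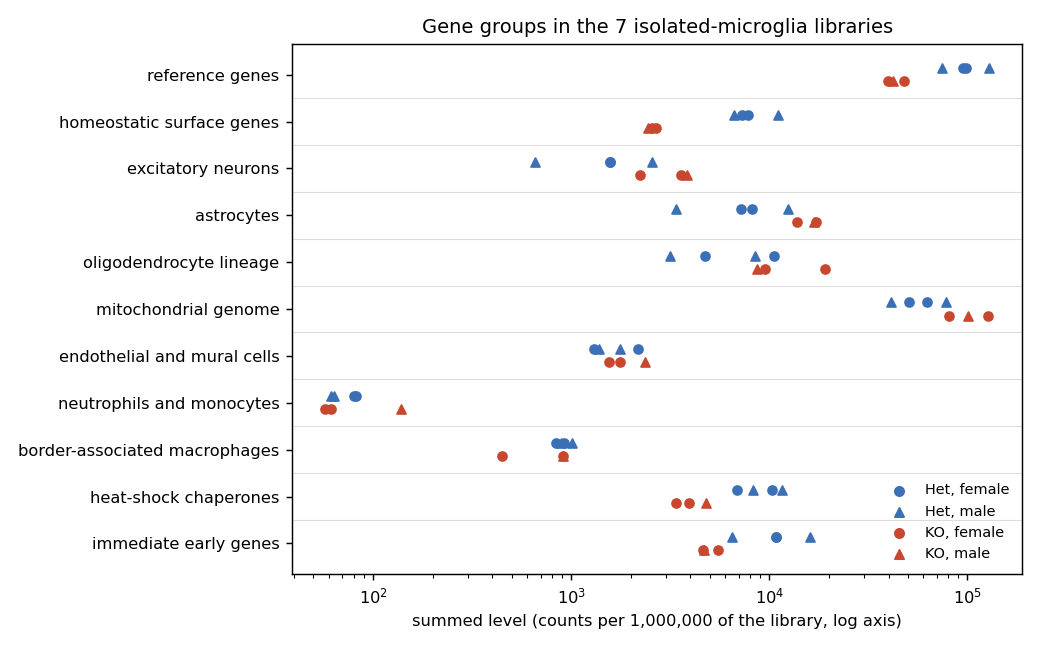
Summed levels of gene groups in the 7 isolates on a log axis, in CPM for all groups but the reference genes. The reference genes are in counts per M of the unscaled library total. Each point is 1 library, blue for Het and red for KO, circles for females and triangles for males. The reference genes and the homeostatic surface genes lie lower in all 3 KO isolates than in all 4 Het isolates, and astrocyte and mitochondrial transcripts lie higher.

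Every gene was tested on 2 scales. The first uses all counts (trimmed mean of M-values, TMM) and asks whether a gene changed against most genes of the isolate. The second, called the relative scale, sizes each library by its reference genes and asks whether a gene changed against the other isolate-enriched genes. On the TMM scale 976 of 18185 genes passed (5.37%), of which 950 were lower in KO (5.22%) and 26 higher (0.143%). The median of all genes was 0.02 in log2 and that of the reference genes was -1.20, and 291 of the 562 reference genes fell while 0 rose. In 381 of them (67.8%) every KO isolate lay below every Het isolate, against 3576 of all 18185 genes (19.7%). On the relative scale the median of the reference genes was 0.02, with quartiles of -0.22 and 0.34, and that of all genes was 1.18. There 13683 genes were called (75.2%), 13656 of them higher (75.1%) and 27 lower (0.148%), so a higher call of a gene outside the reference set says little on this scale, and the account below turns on the reference genes. Among those 562, 21 fell (3.74%) and 81 rose (14.4%) in the fit of all genes. When they were fitted and adjusted alone, 29 fell (5.16%) and 53 rose (9.43%), and 21 that fell and 50 that rose were called in both fits. All KO isolates lay below all Het isolates in 103 of the 562 (18.3%) and above them in 99 (17.6%) on this scale, 35.9% in all, and on the TMM scale arms were apart in 37.7% of all genes (18% with KO above).

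**Figure D2:**
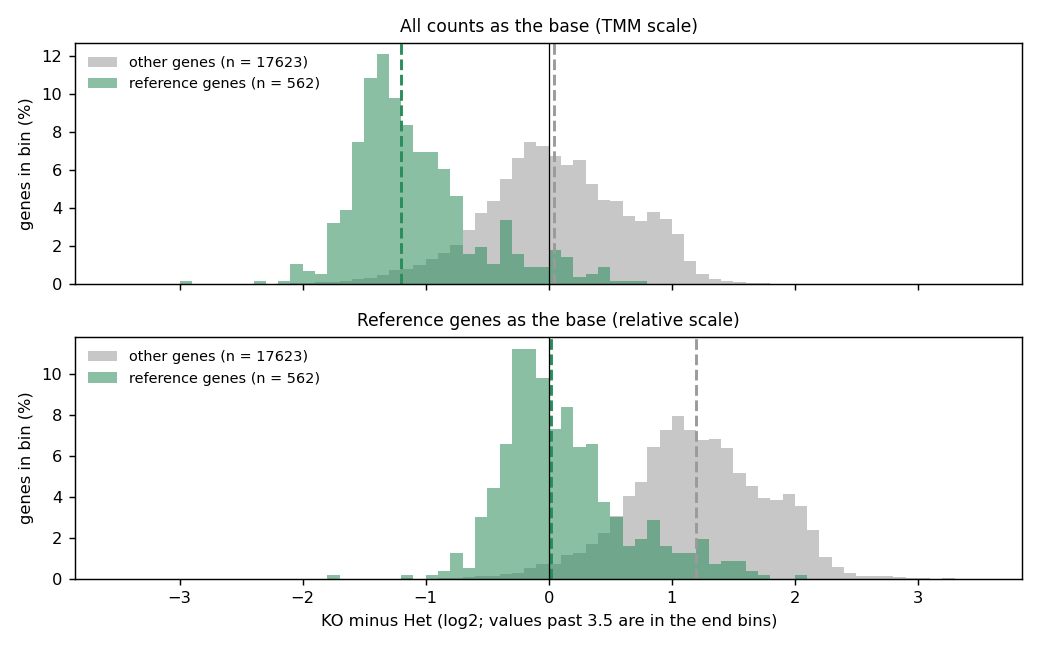
Distribution of the KO minus Het difference (log2) over 562 reference genes (green) and 17623 other genes (grey), as percent of each class per bin, with dashed lines at the medians. On the TMM scale the reference genes centre at -1.20 and other genes at 0.04. On the relative scale they centre at 0.02 and 1.20.

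Homeostatic surface genes had the lowest median of the 31 lists on both scales. All 11 fell on the TMM scale (5.22% of all genes did), with a median of -1.79 against -1.20 for the reference genes. In all 11 every KO isolate lay below every Het isolate, against 19.7% of all genes and 67.8% of the reference genes. On the relative scale the median was -0.58 and 6 of the 11 fell: Slc2a5, Tmem119, P2ry12, P2ry13, Selplg and Siglech, all of them also when the reference genes were fitted alone. Cx3cr1, the fractalkine receptor, and Gpr34, a lysophospholipid receptor, had relative differences of -0.41 and -0.41 with arms that did not overlap, but did not pass (adjusted p = 0.11 and 0.12). Fcrls and Ecscr stood at -0.20 and -0.19. Adgrg1, an adhesion receptor that neural progenitors also carry and that is not a reference gene, stood at 0.25.

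P2ry12, the ADP receptor that steers microglial processes toward injury, had 1362, 1620, 2820 and 1809 CPM in Het 1, 20, 21 and 23 and 551, 450 and 478 CPM in KO 24, 3 and 6. Relative to the reference genes these were 103, 91.2, 113 and 93.5% of the Het mean in Het and 68.7, 56.4 and 57.3% in KO. The arms were apart on both scales, with differences of -1.92 (adjusted p = 0.025) on the TMM scale and -0.70 ± 0.22 (SE, adjusted p = 0.018) on the relative scale. P2ry13, its neighbour on chromosome 3, had 442, 474, 755 and 498 CPM in Het and 139, 138 and 156 CPM in KO, and fell by 0.67 on the relative scale (adjusted p = 0.017). Both lie within the span of Med12l on the opposite strand (P2ry12 at chr3:59216272-59262871 and P2ry13 at chr3:59207892-59210882, minus strand, GRCm38), and whether the authors' counting used strand is not stated. Med12l itself stood at -0.82 on the TMM scale (adjusted p = 0.016) and at 0.33 on the relative scale (adjusted p = 0.29).

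Tmem119, a membrane protein used to tell microglia from blood-derived macrophages, had 386, 449, 557 and 461 CPM in Het 1, 20, 21 and 23 and 119, 118 and 131 CPM in KO 24, 3 and 6. Against the reference genes the KO isolates held 59.2, 59.0 and 62.4% of the Het mean, while the Het isolates ranged from 88.5 to 116%. The relative difference was -0.73 ± 0.21 (SE, adjusted p = 0.013), and no other gene overlaps the Tmem119 span. Selplg, the ligand of P-selectin, fell by 0.65 (adjusted p = 0.021), with KO isolates at 61.4 to 64.0% and Het isolates at 91.7 to 121%. Siglech, a sialic acid-binding lectin, fell by 0.58 (adjusted p = 0.025), with KO isolates at 64.3 to 67.9% and Het isolates at 89.2 to 109%. The KO isolates thus lay close together for each of these 3 genes and below all Het isolates.

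Slc2a5, which encodes the fructose transporter GLUT5, had 98.6, 93.4, 142 and 110 CPM in Het 1, 20, 21 and 23 and 24.8, 24.8 and 28.3 CPM in KO 24, 3 and 6. It stood at 51.4, 51.7 and 56.3% of the Het mean in KO on the relative scale, a difference of -0.88 ± 0.23 (SE, adjusted p = 0.011), the lowest of the surface list. Crybb1, a lens crystallin gene that microglia also transcribe, had 117, 154, 145 and 144 CPM in Het and 31.3, 33.1 and 32.5 CPM in KO. Its relative difference was -0.95 ± 0.23 (SE, adjusted p = 0.010), with KO isolates at 50.8 to 54.0% and Het isolates at 75.4 to 115% of the Het mean. Myo18b, an unconventional myosin gene on the same chromosome, had 85.1, 96.3, 131 and 134 CPM in Het and 23.9, 20.8 and 20.8 CPM in KO. Among protein-coding reference genes called in both fits it had the lowest relative difference, -1.17 ± 0.23 (SE, adjusted p = 0.0099). The arms did not overlap for any of the 3 on either scale.

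**Figure D3:**
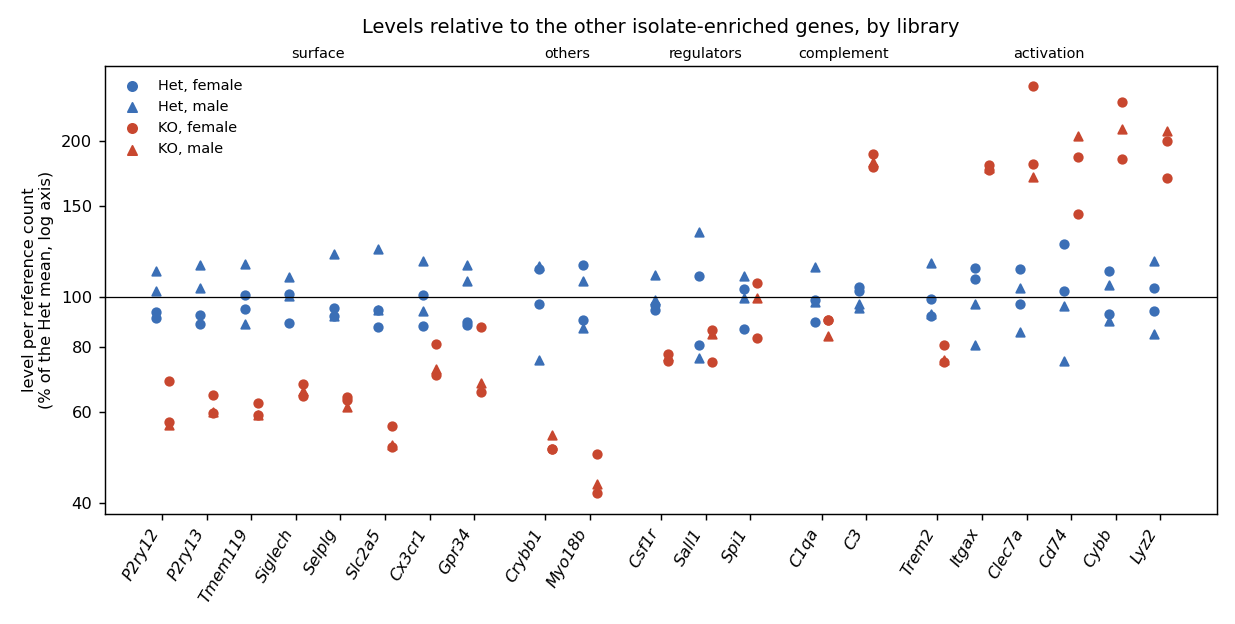
Level of each gene per reference count, as percent of its Het mean (log axis). Each point is 1 of the 7 isolates, blue for Het and red for KO, circles for females and triangles for males. The 6 surface genes called lower lie at 51.4 to 68.7% in KO, Spi1 lies at 83.4 to 106%, and Itgax, Clec7a, Cd74, Cybb, Lyz2 and C3 lie above every Het isolate.

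Of 7 secreted and enzymatic microglia genes, 5 fell on the TMM scale (median -1.53), against 5.22% of all genes. On the relative scale 1, Crybb1, fell (median -0.32), against 0.148% of all genes. Olfml3, a secreted olfactomedin-like protein, stood at -0.41, Golm1 at -0.35 and the lysosomal protease gene Ctss at -0.30, each with arms apart and none past the threshold. Sparc and Cst3, which astrocytes and other cells also express and which are not reference genes, stood at 0.45 and 0.56 and were not called.

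The receptor of IL-34 fell on the TMM scale, and its call on the relative scale depended on the fit. Csf1r had 3203, 3677, 5430 and 4095 CPM in Het 1, 20, 21 and 23 and 1320, 1347 and 1420 CPM in KO 24, 3 and 6. The TMM difference was -1.57 (adjusted p = 0.035). Against the reference genes the KO isolates held 75.04, 77.02 and 77.67% of the Het mean and the Het isolates 94.4 to 110%, so the arms were apart. The relative difference of -0.37 ± 0.21 (SE) did not pass in the fit of all genes (adjusted p = 0.13) and passed when reference genes were fitted alone (adjusted p = 0.025). Csf1, the other ligand, had 112, 185, 372 and 289 CPM in Het and 162, 98.3 and 121 CPM in KO, with overlap on both scales and no call on either (adjusted p = 0.17 and 0.32). Il34 itself, relative to the reference genes, was at 60.2 to 140% of the Het mean in Het and at 185, 205 and 143% in KO 24, 3 and 6. All 3 KO isolates thus lay above the Het isolates on that scale, by 0.86 without passing (adjusted p = 0.076), where the median of all genes was 1.18. Among 11 genes of signalling downstream of the receptor, 7 fell on the TMM scale (5.22% of all genes did), including the kinase Syk, the phosphatase Inpp5d and the adaptor Tyrobp. On the relative scale 0 fell and 3 were called higher (Grb2, Sos1 and Pik3r1), where 75.1% of all genes were. These 3 are expressed by most cells, and none is a reference gene.

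Of the transcription factors, 8 of the 11 tested fell on the TMM scale (median -1.33), against 5.22% of all genes, and the median on the relative scale was -0.11. Spi1 stood at -0.03 and Runx1 at 0.01, both with overlapping arms and neither called. Sall1, which defines microglial identity, stood at -0.26 with overlap (adjusted p = 0.35), and Ikzf1 at -0.38 with arms apart (adjusted p = 0.11). Of the 12 genes of the TGF-beta pathway, on which microglial identity depends, 4 fell on the TMM scale (Tgfb1, Tgfbr1, Smad7 and Nrros). None of these 4 was called on the relative scale, where their values lay between -0.21 and 0.25. Smad2, Smad4, Itgav and Itgb8, none of them reference genes, were called higher there, as were 75.1% of all genes.

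Of 9 complement genes tested, 4 fell on the TMM scale (5.22% of all genes did) and 3 were called higher on the relative scale (75.1% of all genes were), with medians of -0.99 and 0.22. C1qa, C1qb and C1qc, the chains of the initiator C1q, fell on the TMM scale (-1.37, -1.34 and -1.33) and stood at -0.17, -0.13 and -0.13 on the relative scale, none called. The other gene that fell on the TMM scale was Itgb2, an integrin chain of complement receptors (-1.27, and -0.05 on the relative scale, not called). C3, C4b (1.36) and the C5a receptor gene C5ar1 (0.73) were called higher on the relative scale. C4b is not a reference gene, and C5ar1 was not called when the reference genes were fitted alone (adjusted p = 0.061). C3, the central complement protein, had 21.5, 31.1, 41.4 and 34.5 CPM in Het 1, 20, 21 and 23 and 24.3, 24.8 and 26.9 CPM in KO 24, 3 and 6, with overlap. Relative to the reference genes it was 95.4 to 105% of the Het mean in Het and 178, 183 and 190% in KO, with no overlap. It rose by 0.86 ± 0.22 (SE) on that scale (adjusted p = 0.010) and was not called on the TMM scale (-0.35, adjusted p = 0.29). Trem2, the lipid-sensing receptor required for the disease-associated state, fell on the TMM scale (-1.56, adjusted p = 0.014) and stood at -0.37 on the relative scale (adjusted p = 0.12).

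A few reference genes known from activated and antigen-presenting myeloid cells, microglia among them, rose on the relative scale. Summed markers of border-associated macrophages stood at 110, 225 and 215% of the Het mean in KO 24, 3 and 6 on that scale, and those of neutrophils and monocytes at 192, 434 and 173%. The part of such cells in these genes was not tested. Of 17 genes of the disease-associated list, 3 fell on the TMM scale, and 9 were called higher on the relative scale, where the median was 0.80. That count is below the 75.1% of all genes called higher there, and that median below the 1.18 of all genes. Only 2 of those 9, Itgax and Clec7a, are reference genes, and the other 7, among them Apoe, Lpl and Axl, are expressed in other brain cells as well. Itgax, the CD11c integrin chain, had 11.1, 17.5, 17.5 and 18.2 CPM in Het 1, 20, 21 and 23 and 12.5, 12.3 and 12.7 CPM in KO 24, 3 and 6. Its KO isolates stood, relative to the reference genes, at 180, 178 and 176% of the Het mean and its Het isolates at 80.9 to 114%, a rise of 0.81 ± 0.26 (SE, adjusted p = 0.020) that was called in 2 of the 7 fits with 1 animal left out. Clec7a, the beta-glucan receptor dectin-1, rose by 0.97 (adjusted p = 0.010), with KO isolates at 171 to 256% and KO 24 the highest.

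Among MHC class II genes, Cd74 (the invariant chain) rose on the relative scale by 0.83 (adjusted p = 0.014), with KO isolates at 145, 205 and 186% of the Het mean and Het isolates at 75.1 to 126%. Without KO 3 it stood at 0.52 (adjusted p = 0.14), and without Het 23 at 0.83 (adjusted p = 0.057). H2-Aa, H2-Ab1 and H2-Eb1 were called in the fit of all genes (0.87, 0.79 and 0.87) but overlapped between arms and were not called when the reference genes were fitted alone (adjusted p = 0.072, 0.069 and 0.072). H2-DMa and H2-DMb1, which load peptides, fell on the TMM scale (-0.95 and -0.94) but stood at 0.24 and 0.25 on the relative scale, not called. Cybb, the catalytic chain of the phagocyte oxidase, had 35.9, 51.3, 57.9 and 46.0 CPM in Het 1, 20, 21 and 23 and 38.2, 43.4 and 51.2 CPM in KO 24, 3 and 6. It rose by 1.08 ± 0.22 (SE) on the relative scale (adjusted p = 0.0099), to 185 to 239% of the Het mean. Lyz2, lysozyme of myeloid cells, rose by 0.96 (adjusted p = 0.0099), to 170 to 209%.

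The 50 reference genes that rose in both fits held myeloid genes beside genes of the vessel wall. Slfn4, Des, Retnla, Cxcl2, Thbs1 and Eln had the highest relative differences, from 2.00 to 1.33, and Fgr, Itgal, Clec10a, Mgl2, Msr1 and Vwf were also among the 50 (all but Retnla named after their values were seen). Without KO 3, Des stood at 1.04, Cxcl2 at 0.88 and Thbs1 at 0.58 (adjusted p = 0.11, 0.11 and 0.088). None of the 50 rose on the TMM scale, where their differences ran from -0.73 to 0.80. Desmin (Des) and elastin (Eln) are products of mural cells, Vwf of endothelium, and Clec10a, Mgl2 and Retnla of macrophages at the brain's borders and in other tissues, so the reference set is enriched in isolates without being purely microglial. Border-associated macrophage markers summed to 840 to 1013 CPM in Het and to 447, 907 and 907 CPM in KO 24, 3 and 6. Of those 9 markers 7 were called higher on the relative scale (median 0.99), against 75.1% of all genes with a median of 1.18. Endothelial and mural markers stood at 212, 326 and 232% of the Het mean on the relative scale, with KO 3 the highest, as it was for neutrophil and monocyte markers. Their part in the genes that rose was not tested.

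The 21 reference genes that fell in both fits ran from -0.49 to -1.73, and all 21 also fell on the TMM scale. Beside the 6 surface genes and Crybb1, they included Myo18b, Mlxipl (a glucose-responsive transcription factor), Abi3 (an actin regulator) and, named after their values were seen, Gpr183, Fcrl1, Lrrc39, Upk1b, Tagap, Gna15, Parvg, Abcc3, Rasal3 and the long noncoding RNA Gm12865. Mlxipl stood at 60.5 to 73.1% of the Het mean in KO and 85.4 to 111% in Het, and Abi3 at 63.8 to 71.1% and 84.3 to 112%. Outside the reference set the genes with the smallest p among those lower on the relative scale included Hsf2bp (-1.36), Itgae (-1.13) and Mir27a (-2.50). Itgae, an integrin alpha chain, had 5.13 to 7.22 CPM in Het and 1.15 to 1.19 CPM in KO. Mir27a had at most 0.577 CPM in any isolate and is listed for its p only.

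**Figure D4:**
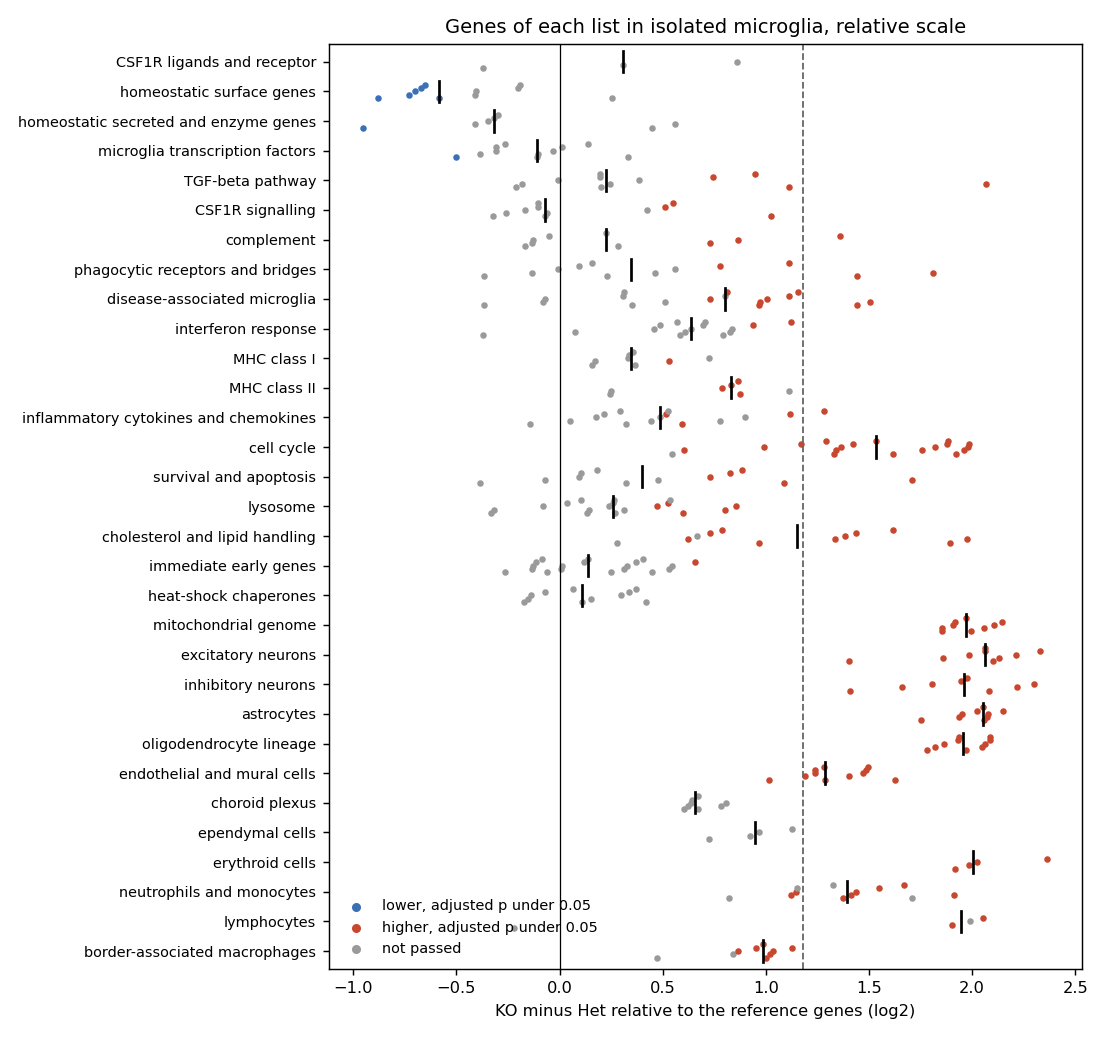
KO minus Het difference on the relative scale (log2) of every tested gene in each list, with a black bar at the list's median and a dashed line at the median of all genes, 1.18. Blue points were called lower and red points higher at an adjusted p under 0.05. The homeostatic surface list has the lowest median, -0.58, and lists of neurons and macroglia lie near 2.

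The inflammatory, interferon, MHC class I and lysosomal lists hold 11, 1, 6 and 6 reference genes, which limits the calls they could give within that set. Of 15 inflammatory genes and 15 interferon-response genes, 0 were called on the TMM scale, where 5932 of all 18185 genes had an unadjusted p under 0.05. Relative to the reference genes 4 and 2 of them were called higher, against 75.1% of all genes. Nlrp3, the inflammasome sensor (0.59), was the 1 called in both fits, where 50 of all 562 reference genes rose and 21 fell. Of 8 MHC class I genes, 0 were called on the TMM scale and 1 was called higher on the relative scale. Reference genes outside the 31 lists also rose in both fits, among them Cxcl2 (1.44), Ifi207 (0.92), Slfn2 (0.85) and Cd14 (0.74), named after their values were seen. Of 18 lysosomal genes 7 fell on the TMM scale (5.22% of all genes did), of which 4 stood above 0 on the relative scale. Another 5 were called higher on the relative scale, none of the 5 a reference gene. Of 19 cell cycle genes, 0 were called on the TMM scale and 18 were higher on the relative scale. Mki67, the proliferation antigen, had 55.6, 48.2, 59.0 and 73.5 CPM in Het 1, 20, 21 and 23 and 117, 77.7 and 108 CPM in KO 24, 3 and 6, apart on both scales (TMM 0.71, adjusted p = 0.075). In forebrain it averaged 14.1 ± 1.4 CPM over 4 Het animals and 16.4 ± 2.9 CPM over 3 KO animals (SD), and no cell cycle gene is a reference gene.

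Some genes that respond to tissue handling fell on the TMM scale, and none did on the relative scale. Of 11 heat-shock chaperone genes, 7 fell on the TMM scale (median -1.08, against -1.20 for the reference genes), where 5.22% of all genes did. All 11 had KO isolates below all Het isolates, against 19.7% of all genes and 67.8% of the reference genes. Their summed level was 8232, 6895, 11648 and 10267 CPM in Het 1, 20, 21 and 23 and 3915, 4815 and 3399 CPM in KO 24, 3 and 6. Of the 11, 0 were called on the relative scale (median 0.11), where 4 of the 7 stood above 0. Of 19 immediate early genes 4 fell on the TMM scale (Jun, Klf2, Rhob and Myc), and the summed level, 6446 to 16131 CPM in Het and 4629 to 5489 CPM in KO, did not overlap. On the relative scale the median was 0.14 and 1 of 19, Btg2, was called higher, against 75.1% of all genes.

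The genes that rose on the TMM scale lay outside the reference set. The 10 with the smallest p were Dbh, Col11a1, Ldlrad3, Arpin, Frmd5, Gpr12, Rnd3, Tfap2d, Kif4 and Tmsb10, and none of them is a reference gene. Col11a1, a fibrillar collagen, had 8.16 to 10.8 CPM in Het and 14.3 to 21.4 CPM in KO, and 33.8 ± 2.6 CPM (SD, n = 4) in Het forebrain. Dbh, which makes noradrenaline, had 0.156 to 0.216 CPM in Het and 0.503 to 0.773 CPM in KO, and Tfap2d at most 0.669 CPM. Summed astrocyte and inhibitory neuron markers lay above every Het isolate in the same KO isolates and summed excitatory neuron markers overlapped, with 0 of the 3 lists' genes called on the TMM scale. Their part in these calls was not tested. The corresponding 10 higher genes by the relative fit were Myoc, Rora, Mki67, Dbh, Clic4, Nes, Maoa, Sh3bgrl, Retnla and Vcam1, of which Retnla alone is a reference gene.

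Whole forebrain of the same 7 animals gave a measure of these genes with no isolation step. There 120 of 19343 genes passed (0.62%), 119 of them lower in KO (0.615%), with 55 called without KO 3 and 72 without KO 6. Of the 11 homeostatic surface genes 9 fell in forebrain, with a median of -1.37. P2ry12 went from 34.9 ± 1.7 CPM over the Het animals to 9.54 ± 1.3 CPM over the KO animals (SD, n = 4 and 3), which is -1.85 (adjusted p = 2.74e-07), and Tmem119 from 6.79 ± 1.1 to 1.89 ± 0.048 CPM (-1.85, adjusted p = 5.60e-05). Crybb1 differed by -2.15 in forebrain and -2.13 in isolates. Of the 21 reference genes lower in both relative fits, 20 were tested in forebrain, all 20 had a negative difference and 11 were called lower. Of the 50 that were higher, 43 were tested in forebrain and 0 were called in either direction, with differences from -1.46 to 0.65, a median of -0.16 and 29 of the 43 below 0. Myo18b, lower in isolates, stood at -0.44 in forebrain and was not called there (adjusted p = 0.32). The median of the 521 reference genes tested in forebrain was -0.42.

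The difference between the KO effect in isolates and that in forebrain was tested for each gene on the TMM scale, and 599 of 20107 genes passed (2.98%). Among the surface genes Adgrg1 was the only 1 of 11 called (-0.82, adjusted p = 0.022), and P2ry12, Tmem119 and Selplg had differences of -0.03, -0.04 and -0.11. Sall1 passed, with an effect in isolates different by -0.95 (adjusted p = 0.028). Of the heat-shock genes 7 of 11 passed. With the animal as a block 0 genes passed, and 5662 had an unadjusted p under 0.05.

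**Figure D5:**
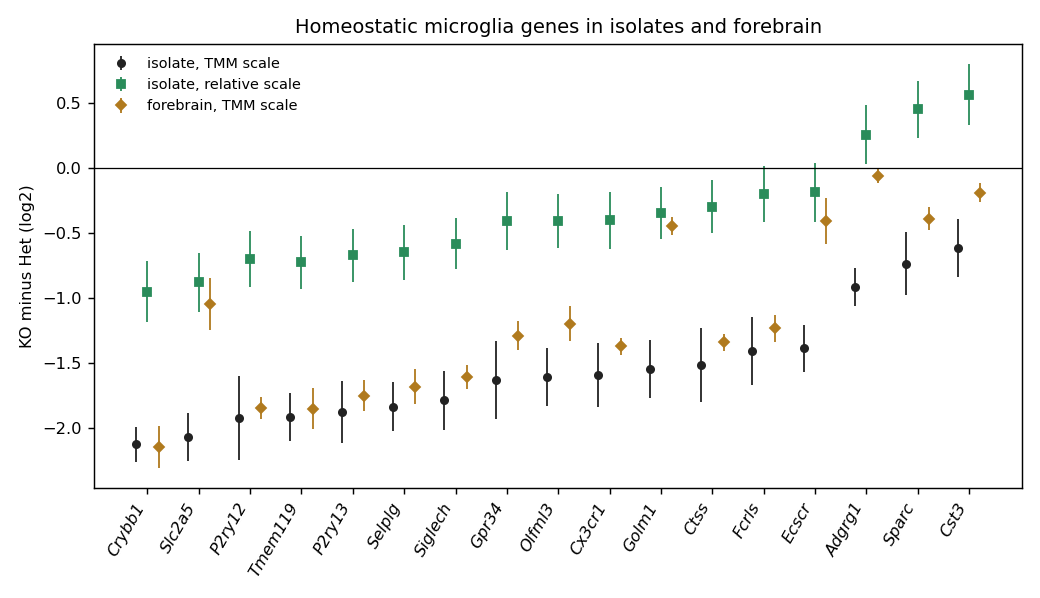
KO minus Het difference (log2, bars are SE) of the 11 surface genes and 6 secreted or enzymatic genes in isolates on the TMM scale (black circles), in isolates on the relative scale (green squares) and in whole forebrain on the TMM scale (gold diamonds). Crybb1, P2ry12 and Tmem119 lie near -2 in both tissues on the TMM scale and below 0 on the relative scale, where Sparc and Cst3 lie above 0.

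Promoters are shown for 3 of the genes lower on the relative scale and for P2ry12, as examples of the windows searched for a PU.1 core (RefSeq, GRCm38.p6, 250 bases before to 50 after the annotated start). Capitals mark AGGAAGT, the core bound by PU.1, sought on both strands. Crybb1 is at chr5:112255570-112255869, plus strand, Slc2a5 at chr4:150119094-150119393, plus strand, Hsf2bp at chr17:32034459-32034758, minus strand and P2ry12 at chr3:59262936-59263235, minus strand.
Crybb1: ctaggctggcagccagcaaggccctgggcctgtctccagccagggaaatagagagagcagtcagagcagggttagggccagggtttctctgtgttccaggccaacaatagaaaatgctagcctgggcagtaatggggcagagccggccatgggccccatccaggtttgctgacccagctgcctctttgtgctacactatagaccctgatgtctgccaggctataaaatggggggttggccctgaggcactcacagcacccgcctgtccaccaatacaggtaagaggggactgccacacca
Slc2a5: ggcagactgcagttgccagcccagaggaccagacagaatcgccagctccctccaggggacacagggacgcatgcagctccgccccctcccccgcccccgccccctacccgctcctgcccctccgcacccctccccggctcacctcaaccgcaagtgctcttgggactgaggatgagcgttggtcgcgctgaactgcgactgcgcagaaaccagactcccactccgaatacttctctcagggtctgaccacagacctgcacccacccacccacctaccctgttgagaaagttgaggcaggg
Hsf2bp: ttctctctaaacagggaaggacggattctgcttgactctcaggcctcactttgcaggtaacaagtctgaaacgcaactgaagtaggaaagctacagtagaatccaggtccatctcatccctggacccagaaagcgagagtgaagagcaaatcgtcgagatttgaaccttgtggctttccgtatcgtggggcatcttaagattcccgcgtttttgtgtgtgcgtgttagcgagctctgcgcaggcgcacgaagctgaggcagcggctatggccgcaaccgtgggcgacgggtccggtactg
P2ry12: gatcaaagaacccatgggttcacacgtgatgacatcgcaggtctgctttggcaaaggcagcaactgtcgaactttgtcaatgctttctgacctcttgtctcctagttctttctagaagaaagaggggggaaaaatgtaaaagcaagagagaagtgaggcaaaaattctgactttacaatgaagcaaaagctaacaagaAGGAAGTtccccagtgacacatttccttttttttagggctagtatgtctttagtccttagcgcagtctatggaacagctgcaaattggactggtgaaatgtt
Of these 4, P2ry12 alone holds the core in this window, once, 52 bases before the start, and it was added to the set after the matches were counted. The core occurs in 2587 of all 27025 promoters (9.57%) and in 111 of the 425 reference genes with a promoter in the table (26.1%). It occurs in 4 of the 14 matched promoters of the 21 lower genes (28.6%: P2ry12, Fcrl1, Parvg and Tagap) and in 13 of the 38 matched promoters of the 50 higher genes (34.2%). A match is a description of the letters in the window and not of binding.

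The calls rest on few animals. On the TMM scale 0 genes passed without Het 20, Het 23, KO 24, KO 3 or KO 6, each taken out in turn. These fits had 4071, 3311, 3844, 2268 and 4465 genes at an unadjusted p under 0.05. Taking out Het 1 gave 5756 genes and taking out Het 21 gave 3115. The relative median of the surface genes stayed between -0.54 and -0.64 in all 7 such fits, but the number of the 11 called lower varied. It was 6 when Het 1 or Het 21 was left out, 3 when KO 24 or KO 6 was left out, 1 when Het 20 was left out, and 0 when Het 23 or KO 3, the only KO male, was left out.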

How the data were processed

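Low-input libraries (SMART-Seq v4, per the labels' protocols) of isolated microglia and whole forebrain were sequenced by the authors. The authors deposited whole-number read counts per gene for 51752 genes, unnormalised, with a gene Length (a unit outside expression, equal to the gene span of GENCODE M21 for 51183 of 51498 matched identifiers, so reads appear to be counted over spans). The submitters' processing notes name STAR 2.7.5c, featureCounts 1.6.3, R 4.4.0 and the build GRCm38, and strand use is not given in the sources used here. The table's 6 columns that match no label were not used, and 8 genes have no symbol and took under 0.001% of counts.

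Isolate totals ran from 15.8 to 39.8 M counts (M stands for 1e+06), and replicates differed by far more than counting noise (lowest chi-square per degree of freedom 30.7). Pearson correlations over the reference genes were 0.955 to 0.991 within an arm and 0.919 to 0.976 between arms. Counts were tested with edgeR 4.0.16 (quasi-likelihood F test, filterByExpr, sex as a covariate, Benjamini-Hochberg over all genes tested, threshold 0.05) in R 4.3.3. On the relative scale, library sizes were TMM effective sizes over 562 reference genes: at least 4 log2 units higher in isolates than in forebrain of 4 control-antibody (anti-gp120) animals, adjusted p under 0.05 with the animal as a block, at least 10 CPM, leaving out the lists of other cells and of handling. CPM values are counts per M of the TMM effective library size, which is the total of genes past the filter times the TMM factor. The percentages of counts taken by the reference genes are over the unscaled library total.

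Named genes were the 10 lower and 10 higher genes with the smallest p on each scale, all members of 31 gene lists, and Il34, Csf1 and Csf1r. Some genes are not reported here. Members, lists and rules were chosen with earlier results of these data known. Alternatives were DESeq2 1.42.0, no filter, no sex term, all 15 isolates in 1 fit, other scalings and reference sets, and leaving out each animal. The animal pairs isolates with forebrain, since both come from 1 brain, and was a block in an alternative of the tissue difference. The fits were tested on simulated data with known changes.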

Additional observations from a re-analysis of the deposited data

Results flagged for a closer look

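For 13 of the genes named by p, the KO effect in isolates differed from that in forebrain by the test of the difference itself (edgeR, TMM scale). The effect was higher in isolates for Dbh (1.93 in log2), Gpr12 (1.61), Col11a1 (1.07), Kif4 (0.91), Arpin (0.84), Ldlrad3 (0.73), Frmd5 (0.66), Sh3bgrl (0.65), Rnd3 (0.64) and Tmsb10 (0.62), none of them reference genes. It was lower in isolates for Myo18b (-1.90), Plxdc1 (-1.16) and Rubcnl (-1.02). With the animal as a block none of the 13 passed. Summed astrocyte and inhibitory neuron markers lay above every Het isolate in the KO isolates and summed excitatory neuron markers overlapped, with 0 of the 3 lists' genes called on the TMM scale. Their part in these differences was not tested.

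Some Het isolates were marked as apart from the other 3, in a check of 230 sets of 4 values (115 genes on 2 scales). Chance marks about 1 set in 20, and the check marked 9, fewer than that rate gives. The marked values are listed as a description only. Het 1 was low for Itgax (11.1 CPM against 17.5 to 18.1) and, in percent of the Het mean on the relative scale, low for Tgfb1 (94.0 against 101.4 to 102.8) and Upk1b (92.0 against 102.2 to 103.6). On that scale it was high for Lpl (123 against 92.2 to 92.5), Selplg (121 against 91.7 to 95.1) and Rasal3 (108 against 96.6 to 98.3). Het 23 was high for Itgb2 (109.2 against 96.6 to 97.2). Het 20 was the only Het isolate with any count of Itgam (0.182 CPM, 400% of the Het mean on the relative scale). The KO arm of 3 was too small for this check.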

How the results depend on the processing

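On the TMM scale the count of 976 genes became 3807 with DESeq2 (1452 higher, 2355 lower), 1993 with no filter (599 and 1394), 2189 with no sex term (356 and 1833), 2734 with all 15 isolates in 1 fit (407 and 2327) and 784 with RLE scaling (21 and 763), and leaving out 1 animal gave 0 to 5756. The median of the reference genes stayed at -1.02 to -1.31 in those fits. Scaling to the reference set gave 13683 genes, and testing only the reference set on that scale gave 82 (53 higher, 29 lower). On the relative scale leaving out 1 animal gave 0 (without KO 3, with 10476 at an unadjusted p under 0.05) to 15041, with 7374 without Het 23.

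The 102 reference genes called on the relative scale (81 higher, 21 lower) became 178 with all 15 isolates in 1 fit (97 higher, 81 lower). With no filter on low counts they became 80 (70 higher, 10 lower). A reference set of at least 3 log2 units gave 138 (56 higher, 82 lower) and one of at least 5 gave 95 (84 and 11), so the balance of directions moves with the set. Leaving out 1 animal gave 0 (without KO 3, with 32 at an unadjusted p under 0.05) to 164 (without Het 21, 47 of them lower). It gave 60 without Het 20 (5 lower), 27 without Het 23 (3 lower) and 49 without KO 6 (6 lower).

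In forebrain, 120 became 13462 when scaled to the reference set and 55 to 117 without 1 animal. For the difference between tissues, 599 became 0 with the animal as a replicate block, 0 when scaled to the reference set within each tissue (10495 at an unadjusted p under 0.05), and 0 to 5688 without 1 animal. Of the 66 list genes called lower on the TMM scale, 18 stood above 0 when scaled to the reference set (0.0050 to 0.42, 0 of them called there). The other alternatives were run for 23 genes on the TMM scale and 86 on the relative scale, and none of these that was past the threshold changed direction. Il34, which was not called, ranged from -0.45 to 0.05 on the TMM scale without 1 animal. The cause of the changes in counts was not tested. Genes near the filter, with under 1 CPM, are limited by depth.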
